A study of Mus musculus with 8 samples.

Results

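The 9 genes described here are the core of the Indian hedgehog and parathyroid hormone-related protein (PTHrP) signalling of the growth plate: the ligand Ihh, its receptor Ptch1, the transducer Smo, the transcription factors Gli1, Gli2 and Gli3, the ligand antagonist Hhip, and the PTHrP ligand Pthlh with its receptor Pth1r. They were chosen by name, with earlier results of these data known, and each was read from its single-gene probe set with the highest mean over the arrays. Of the 9 genes, 8 had such a probe set, 1 each, among 22180 genes read in this way. Pthlh had no single-gene probe set in the annotation used, and it was not analysed here. All 8 measured genes were past the filter on low values (a mean log2 level of 6.21) and were among the 15526 genes tested.

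In the growth plate, chondrocytes that leave proliferation make Indian hedgehog, which acts on neighbouring cells by relieving Ptch1's block on Smo at the primary cilium. Smo activity turns Gli2 and Gli3 from repressors into activators. Ptch1, Hhip and Gli1 are themselves classical targets, so that their transcripts are widely read as a gauge of pathway activity. Indian hedgehog also sustains PTHrP, which signals through Pth1r to hold chondrocytes in proliferation and delay hypertrophy. In the spine the same ligand family patterns the sclerotome, from which vertebrae and annulus arise, and the disc lies between cartilaginous end plates that resemble a growth plate.

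The tissue was thoracic annulus fibrosus, the ring of fibrocartilage that encloses the disc's core, taken from Black 6 mice at 2 and 6 months of age. WT mice were compared with ENT1-null mice, in which exons 2 to 4 of Slc29a1 were deleted, so that they lack equilibrative nucleoside transporter 1, a membrane carrier of adenosine. No driver or cell type limits this deletion in the labels, and they name no further treatment. There were 4 groups of 2 Affymetrix arrays, 8 in all, and each array held a pool of 5 to 6 annulus tissues. The labels do not say whether a group's pools were drawn from different mice, so that p-values measure only the spread between pools. Levels are log2 values, differences are ENT1-null minus WT or 6 months minus 2 months on the log2 scale, ± is the SE of the limma fit with 2 arrays per group, and adjusted p-values use the Benjamini-Hochberg method over all 15526 genes. A gene was called at an adjusted p below 0.05. Levels of different genes were not compared with each other, since probe sets differ in brightness.

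Array medians lay between 6.77 and 6.82, and Pearson r across genes was 0.983 to 0.984 between the arrays of a group and at least 0.835 between any others. Slc29a1 was 10.71 and 10.69 on the 2 month WT arrays, 9.21 and 9.36 on the 2 month ENT1-null arrays, 10.34 and 10.43 on the 6 month WT arrays and 8.90 and 8.80 on the 6 month ENT1-null arrays. Every ENT1-null array was below every WT array. The difference was −1.41 ± 0.09 at 2 months (adjusted p = 0.00724) and −1.53 ± 0.09 at 6 months (adjusted p = 0.000354). The 2 month call ended when WT replicate 1 was left out (adjusted p = 0.149), and likewise for either ENT1-null array (0.0616 and 0.0643). Which exons the probe set reads is not given in the sources used here.

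Promoter sequences are shown for Ptch1 and Hhip, because both are classical Gli targets and both were lower in ENT1-null annulus at 6 months. They are RefSeq sequences of GRCm38.p6, 5′ to 3′ on the gene's strand, the 250 bases before a transcript start, with capitals marking the GC box, GGGCGG or its reverse complement CCGCCC.
Ptch1, chr13:63565736-63565985, minus strand: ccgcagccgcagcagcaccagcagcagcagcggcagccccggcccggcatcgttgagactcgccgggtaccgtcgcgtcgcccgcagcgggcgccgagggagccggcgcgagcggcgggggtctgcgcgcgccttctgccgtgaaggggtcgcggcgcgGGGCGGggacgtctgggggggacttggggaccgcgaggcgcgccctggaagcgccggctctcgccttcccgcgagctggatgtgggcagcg
Hhip, chr8:80058009-80058258, minus strand: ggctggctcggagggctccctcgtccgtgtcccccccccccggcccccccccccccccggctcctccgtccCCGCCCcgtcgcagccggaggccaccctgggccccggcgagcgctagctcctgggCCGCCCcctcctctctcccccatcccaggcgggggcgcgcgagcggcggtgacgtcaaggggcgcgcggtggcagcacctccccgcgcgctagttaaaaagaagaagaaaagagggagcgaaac
The Ptch1 window held 1 GC box and the Hhip window 2, a motif present in 32.7% of the 32851 promoter windows of that length. Of the 9 genes 8 had promoter entries, and Gli1 had none. The Gli consensus GACCACCCA, searched on both strands, had no match in the windows of these 8 genes (0.225% of all windows hold it), nor had CCACCCA, the shorter core within it (8.11%). These letters are therefore absent from the windows searched, which says nothing about binding elsewhere. The Ptch1 and Gli2 windows lie inside the listed spans of these genes, so that the bases before their outermost ends were not searched.

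At 6 months, transcripts of 6 of the 8 genes were lower in ENT1-null than in WT annulus: Hhip, Gli2, Ptch1, Gli3, Smo and Gli1, of which only Hhip passed the test as lower, and Smo and Gli1 turned sign, when read relative to 8 chondrocyte markers that fell as well. On the deposited scale the falls ran from 1.68-fold for Gli1 to 3.22-fold for Hhip. The ligand Ihh and the PTHrP receptor Pth1r also lay lower in both ENT1-null arrays, without passing the test. For each of the 8 genes, both ENT1-null arrays lay below both WT arrays. Of all genes tested, 38.8% were called at 6 months (17.6% of all genes as lower in ENT1-null), and the genotypes' arrays had no overlap for 72.3%, with ENT1-null the lower for 36.8%. The median difference was −0.83 over the 8 genes and −0.026 over all genes. In bulk tissue, fewer cells of a type and less RNA per cell cannot be told apart.

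**Figure D1:**
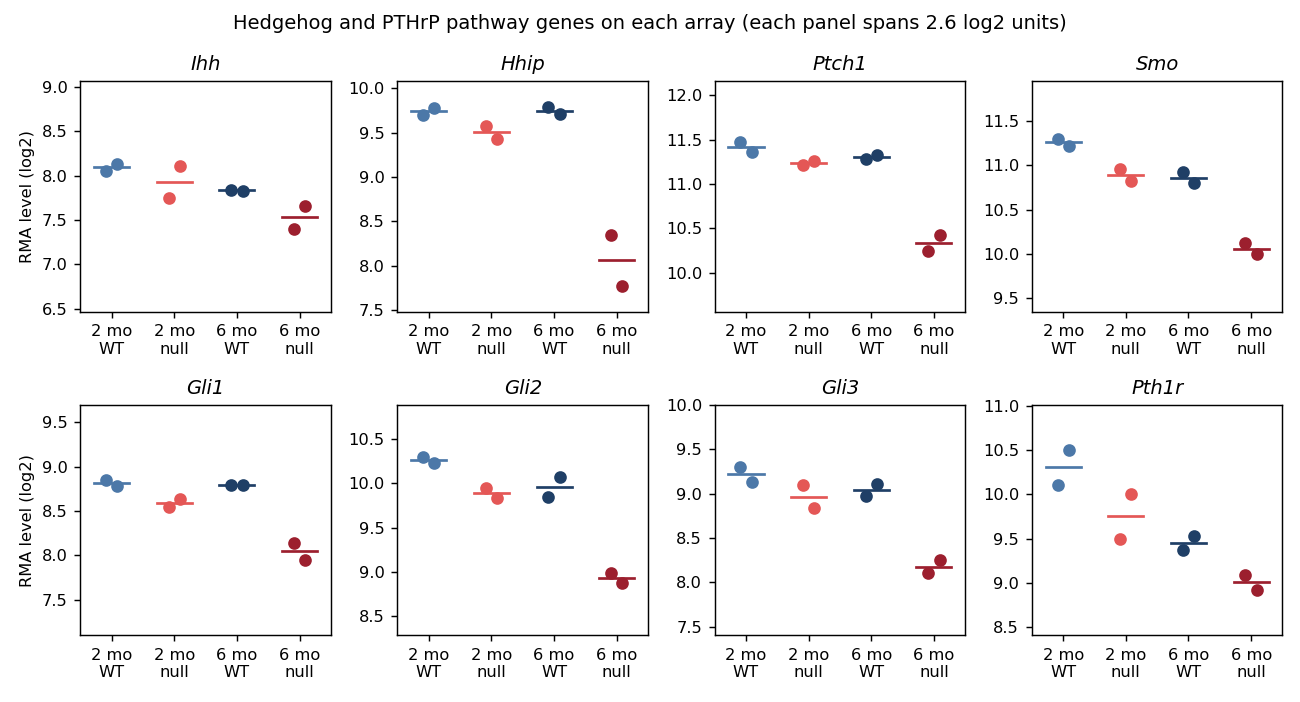
Log2 level of each of the 8 measured genes on every array (points), by genotype and age, with 2 arrays in each group and their mean as a line. The lowest pair of arrays is the 6 month ENT1-null pair for every gene, and the gap is widest for Hhip (8.35 and 7.77 against 9.43 or more on the other arrays).

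The ligand Ihh stood at 8.06 and 8.13 on the 2 month WT arrays, 7.75 and 8.12 on the 2 month ENT1-null arrays, 7.84 and 7.83 on the 6 month WT arrays and 7.40 and 7.66 on the 6 month ENT1-null arrays. Its 2 month genotypes overlapped, and the 2 month ENT1-null pair was the widest apart. At 6 months the difference was −0.30 ± 0.14 (adjusted p = 0.12), and at 2 months −0.16 ± 0.14 (adjusted p = 0.555). Without 2 month ENT1-null replicate 1 the 2 month value was 0.020.

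Hhip binds Hedgehog ligands at the cell surface and so dampens the signal. Its level was 9.69 and 9.78 on the 2 month WT arrays, 9.57 and 9.43 on the 2 month ENT1-null arrays, 9.79 and 9.70 on the 6 month WT arrays and 8.35 and 7.77 on the 6 month ENT1-null arrays. Both WT ages overlapped, the 2 month ENT1-null arrays lay just under them, and the 6 month ENT1-null arrays lay far below all others. Its fall at 6 months was −1.68 ± 0.17 (adjusted p = 0.00052), and 0.354% of genes had a lower difference.

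Ptch1, the receptor that holds Smo inactive until ligand binds, was at 11.47 and 11.36 on the 2 month WT arrays, 11.21 and 11.25 on the 2 month ENT1-null arrays, 11.28 and 11.32 on the 6 month WT arrays and 10.25 and 10.43 on the 6 month ENT1-null arrays. The 3 other groups lay close together without overlapping, and the 6 month ENT1-null arrays stood apart. The fall at 6 months was −0.96 ± 0.09, or 1.95-fold (adjusted p = 0.000453).

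Smo, the seven-pass membrane protein that passes the signal to the Gli factors, was at 11.30 and 11.22 on the 2 month WT arrays, 10.96 and 10.82 on the 2 month ENT1-null arrays, 10.93 and 10.80 on the 6 month WT arrays and 10.12 and 9.998 on the 6 month ENT1-null arrays. Here the 2 month ENT1-null and 6 month WT arrays overlapped, below the 2 month WT arrays and above the 6 month ENT1-null arrays. At 6 months Smo fell by 0.80 ± 0.10, or 1.74-fold (adjusted p = 0.000801).

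Among the Gli factors, Gli1 is an activator and the target whose transcript follows the pathway most directly. It was at 8.85 and 8.78 on the 2 month WT arrays, 8.54 and 8.63 on the 2 month ENT1-null arrays, 8.79 and 8.80 on the 6 month WT arrays and 8.14 and 7.95 on the 6 month ENT1-null arrays. Both WT ages overlapped, and the ENT1-null arrays lay below them at each age. The 6 month difference was −0.75 ± 0.09, or 1.68-fold lower (adjusted p = 0.00087).

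Gli2, the main activator of the pathway, was at 10.29 and 10.23 on the 2 month WT arrays, 9.94 and 9.83 on the 2 month ENT1-null arrays, 9.85 and 10.06 on the 6 month WT arrays and 8.98 and 8.88 on the 6 month ENT1-null arrays. Gli3, the main repressor, was at 9.30 and 9.13, 9.09 and 8.83, 8.97 and 9.11, and 8.10 and 8.25 in the same order. For both genes the 2 month ENT1-null and 6 month WT arrays overlapped, and the 6 month ENT1-null arrays were lowest. At 6 months Gli2 fell by 1.03 ± 0.10, or 2.04-fold (adjusted p = 0.000486). Gli3 fell by 0.86 ± 0.12, or 1.82-fold (adjusted p = 0.00136).

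Pth1r, the receptor shared by PTHrP and parathyroid hormone, was at 10.10 and 10.50 on the 2 month WT arrays, 9.50 and 10.01 on the 2 month ENT1-null arrays, 9.37 and 9.53 on the 6 month WT arrays and 9.10 and 8.92 on the 6 month ENT1-null arrays. The 6 month WT arrays reached only the lower of the 2 month ENT1-null arrays, and both 2 month pairs were widely spread. The 6 month difference was −0.44 ± 0.19 (adjusted p = 0.105).

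Each of the 6 calls at 6 months held without any one of the 8 arrays, with adjusted p-values up to 0.0132. Centring arrays on their medians or quantile normalizing again also called Ihh (−0.40, adjusted p = 0.042, and −0.38, 0.0446) and Pth1r (−0.54, 0.0339, and −0.59, 0.0323), while the all-gene split of 3295 higher and 2727 lower became 2683 and 3848, and 2784 and 3386.

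The chondrocyte markers of these arrays moved in the same direction. The mean level of 8 markers (Col2a1, Acan, Col9a1, Matn1, Sox9, Cnmd, Hapln1 and Comp) was 11.38 to 11.39 on the 2 month WT arrays, 11.00 to 11.19 on the 2 month ENT1-null arrays, 10.88 to 10.95 on the 6 month WT arrays and 10.04 to 10.14 on the 6 month ENT1-null arrays. At 6 months 7 of the 8 fell, and at 2 months none was called. Read relative to this mean, Hhip remained lower at 6 months, at −0.86 ± 0.17 (adjusted p = 0.000952). Gli2 (−0.20 ± 0.13, adjusted p = 0.16), Ptch1 (−0.14 ± 0.13, 0.324) and Gli3 (−0.04 ± 0.16, 0.819) were not called, and the sign turned for Smo (0.022 ± 0.14, 0.879) and Gli1 (0.076 ± 0.11, 0.512). This scaling shifts all genes alike, and it moved the median of all genes to 0.80 and called 89.1% of them as higher and 1.11% as lower (90.3% in all). Hhip was among that 1.11%, while Ihh (0.52 ± 0.14, adjusted p = 0.00528) and Pth1r (0.38 ± 0.16, 0.0395) were called as higher, as most genes were, at values below that median.

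Markers of blood cells and osteoclasts rose at the same age. At 6 months 9 of 9 neutrophil markers, 4 of 4 measured erythroid markers, 6 of 6 macrophage markers, 5 of 5 tested osteoclast markers and 4 of 4 tested B cell markers were higher in ENT1-null annulus. The neutrophil mean was 8.62 to 10.20 on the 6 month WT arrays and 11.79 to 11.87 on the 6 month ENT1-null arrays, and the erythroid mean 7.92 to 8.78 and 10.39 to 10.68. At 2 months the neutrophil means were 8.91 to 10.08 and 10.82 to 11.22, and the erythroid means 7.60 to 8.06 and 9.28 to 9.37. All 6 skeletal muscle markers fell at 6 months, with means of 10.69 to 10.84 in WT and 7.54 to 8.75 in ENT1-null arrays, against 8.28 to 9.59 and 9.16 to 10.83 at 2 months. Annulus and tendon fibroblast markers split, 2 higher and 2 lower of 7, with means of 9.56 to 9.64 and 9.58 to 9.68, and osteoblast markers split 3 and 2 of 6, with means of 9.37 to 9.49 and 9.56 to 9.79. Of nucleus pulposus markers 1 of 5 tested rose, with Shh and Noto under the filter on low values. Among endothelial markers 1 of 5 rose, and of 4 tested adipocyte markers none was called. The part of these cell types in the falls of the Hedgehog genes was not tested.

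**Figure D2:**
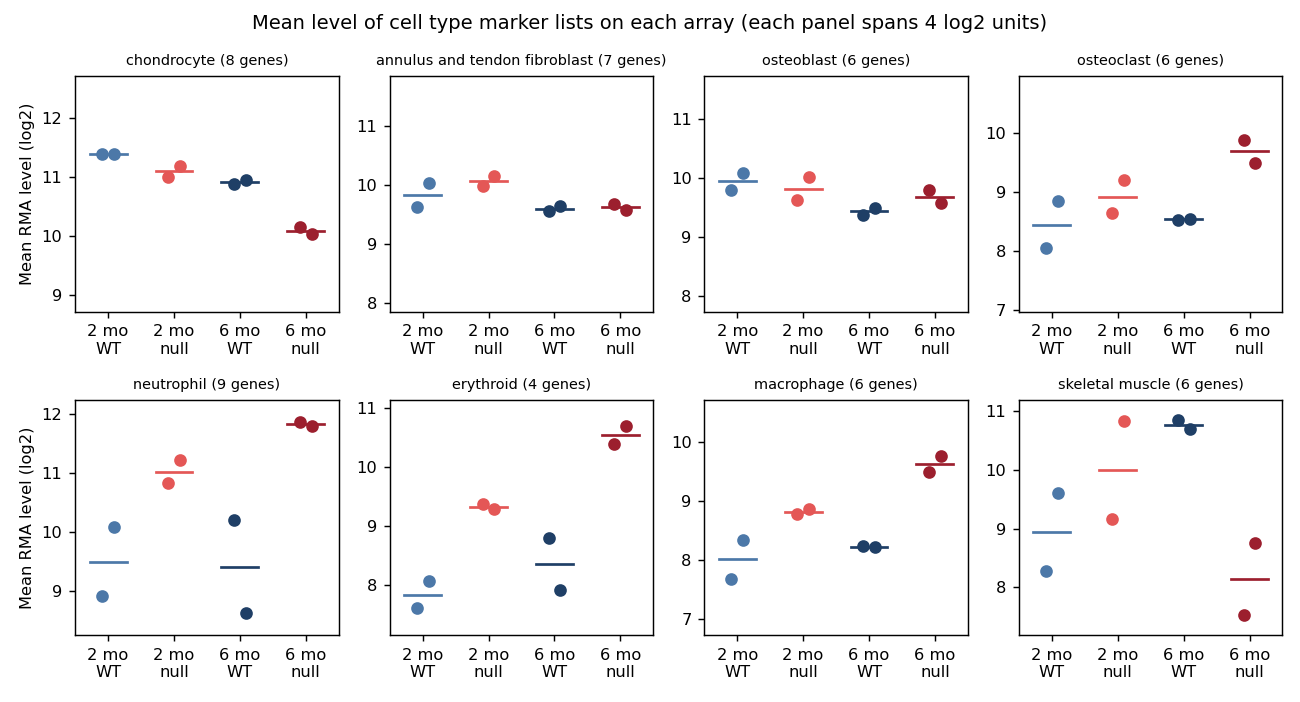
Mean log2 level of 8 of the marker lists on every array (points), by group, with the group mean as a line. The chondrocyte list is lowest on the 6 month ENT1-null arrays (10.04 to 10.14), and the neutrophil list is highest there (11.79 to 11.87).

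At 2 months none of the 8 genes passed the limma test, although all 8 differences were below 0, as were 60.4% of those of all genes. At an unadjusted p below 0.05, 4 of the 8 (Smo, Gli2, Pth1r and Gli1) and 19.4% of all genes passed. Of all genes 0.683% were called at this age, 0.386% as lower. For 7 of the 8 genes, all but Ihh, both ENT1-null arrays lay below both WT arrays, against 33.2% of all genes, while 52.3% had no overlap in either direction. The median was −0.25 against −0.044 for all genes. Pth1r had the lowest value, −0.55 ± 0.19 (adjusted p = 0.181), followed by Gli2 (−0.37 ± 0.10, 0.108) and Smo (−0.37 ± 0.10, 0.0992). Gli3 (−0.26 ± 0.12, adjusted p = 0.299), Hhip (−0.24 ± 0.17, 0.496), Gli1 (−0.22 ± 0.09, 0.239) and Ptch1 (−0.18 ± 0.09, 0.337) were nearer 0. Relative to the chondrocyte markers the median of all genes became 0.25, and the sign turned for Ihh, Ptch1, Gli1, Gli3 and Hhip, with values from 0.036 to 0.13.

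**Figure D3:**
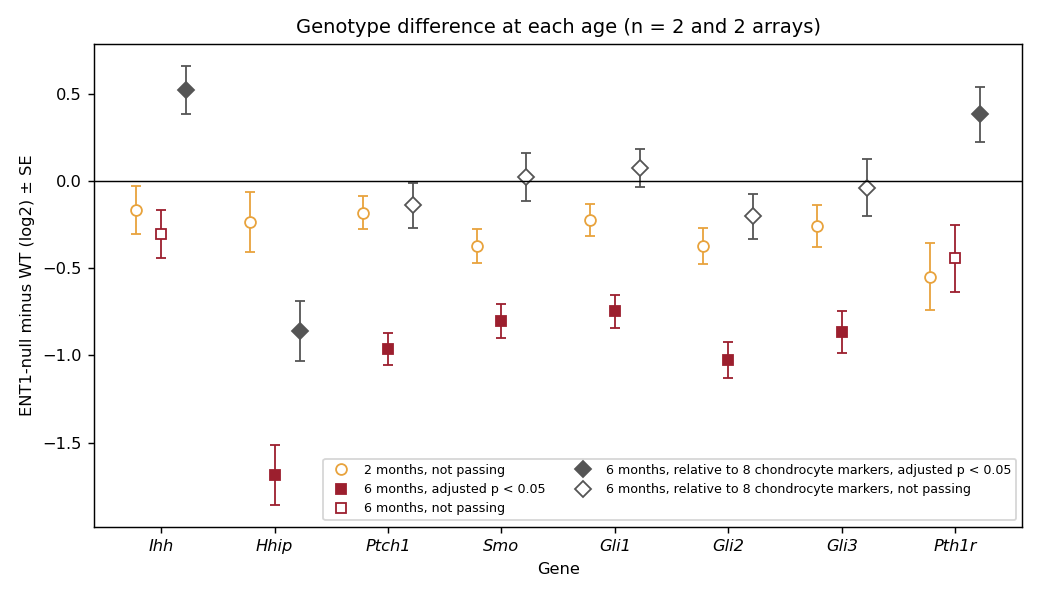
Difference between ENT1-null and WT in log2 units for each gene at 2 and at 6 months, with the SE of the limma fit as bars and filled points for an adjusted p below 0.05; diamonds give the 6 month difference relative to 8 chondrocyte markers. The 6 called genes lie between −1.68 and −0.75 at 6 months and between −0.37 and −0.18 at 2 months, and the diamonds of Smo and Gli1 lie at 0.022 and 0.076.

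The genotype difference itself changed between the ages for 3 of the 8 genes in an interaction test, with a background of 4.45% of all genes called and 1.89% as lower. The 6 month difference was below the 2 month difference by 1.45 ± 0.24 for Hhip (−1.45, adjusted p = 0.0384), by 0.78 ± 0.13 for Ptch1 (−0.78, 0.0384) and by 0.65 ± 0.14 for Gli2 (−0.65, 0.0494). Gli1 (−0.52 ± 0.13, adjusted p = 0.0598), Gli3 (−0.61 ± 0.17, 0.0752) and Smo (−0.43 ± 0.14, 0.0969) did not pass, nor did Ihh (−0.14 ± 0.19, 0.70) and Pth1r (0.10 ± 0.27, 0.848). Relative to the chondrocyte markers, a scale on which 65.3% of all genes were called here, 64.3% as higher and 0.94% as lower, Hhip was called as lower (−0.92, adjusted p = 0.0112) and Pth1r as higher (0.64, 0.0297), as most genes were. This test uses the same arrays as the comparisons at each age. On the deposited scale the count called fell to 0 whichever of the 8 arrays was left out, and to 0 without the filter on low values.

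With age, the WT annulus gave no call among the 8 genes and none among all 15526 genes (0%) in limma. At an unadjusted p below 0.05, 3 of the 8 (Pth1r, Smo and Gli2) and 2067 genes (13.3%) passed. Pth1r had the lowest difference from 2 to 6 months, −0.85 ± 0.19 (adjusted p = 0.211), then Smo (−0.40 ± 0.10, 0.229), Gli2 (−0.31 ± 0.10, 0.312) and Ihh (−0.26 ± 0.14, 0.452). Gli1 (−0.020 ± 0.09, adjusted p = 0.941) and Hhip (0.0081 ± 0.17, 0.988) were nearest 0. Both 6 month WT arrays lay below both 2 month WT arrays for 6 of the 8 genes, all but Gli1 and Hhip, against 35.9% of all genes (49.4% without overlap in either direction). Relative to the chondrocyte markers the median of all genes became 0.42 in WT, with 72.4% called as higher and 0.142% as lower. On that scale Ihh, Ptch1, Smo, Gli1, Gli2 and Gli3 moved to values from 0.073 to 0.45, and Hhip was at 0.48. Of these, Gli1 (0.45, adjusted p = 0.0129), Hhip (0.0329) and Ptch1 (0.35, 0.0351) were called as higher, as most genes were. Pth1r was called as lower (−0.38 ± 0.16, adjusted p = 0.0488).

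In ENT1-null annulus 7 of the 8 genes fell between 2 and 6 months, against 22.2% of all genes called and 10.2% called as lower. Both 6 month arrays lay below both 2 month arrays for all 8, against 29.8% of all genes (59.8% without overlap in either direction). Hhip fell by 1.44 ± 0.17 (adjusted p = 0.00293), Gli2 by 0.96 ± 0.10 (0.00257), Ptch1 by 0.90 ± 0.09 (0.00257), Smo by 0.83 ± 0.10 (0.00293), Gli3 by 0.79 ± 0.12 (0.00507) and Gli1 by 0.54 ± 0.09 (0.00711). Pth1r fell by 0.75 ± 0.19 (adjusted p = 0.0291), a call that ended without either 6 month ENT1-null array or without 2 month ENT1-null replicate 2, with adjusted p-values up to 0.135. Ihh was at −0.40 ± 0.14 (0.0773) and passed without 2 month ENT1-null replicate 1 (−0.59, 0.0419). The 6 month ENT1-null arrays serve in both this comparison and that of genotype at 6 months, so that neither supports the other. All 8 chondrocyte markers fell with age in ENT1-null annulus, and none was called in WT. Relative to the chondrocyte markers, which shifts all genes alike, the median of all genes became 1.00. Of all genes 95.7% were called as higher and 0.167% as lower. The 8 genes lay below that median, all but Hhip at 0.046 to 0.60, and Hhip was called as lower (−0.44 ± 0.17, adjusted p = 0.0319). Ihh (0.60, adjusted p = 0.00188) and Gli1 (0.46, 0.00216) were called as higher, as most genes were.

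**Figure D4:**
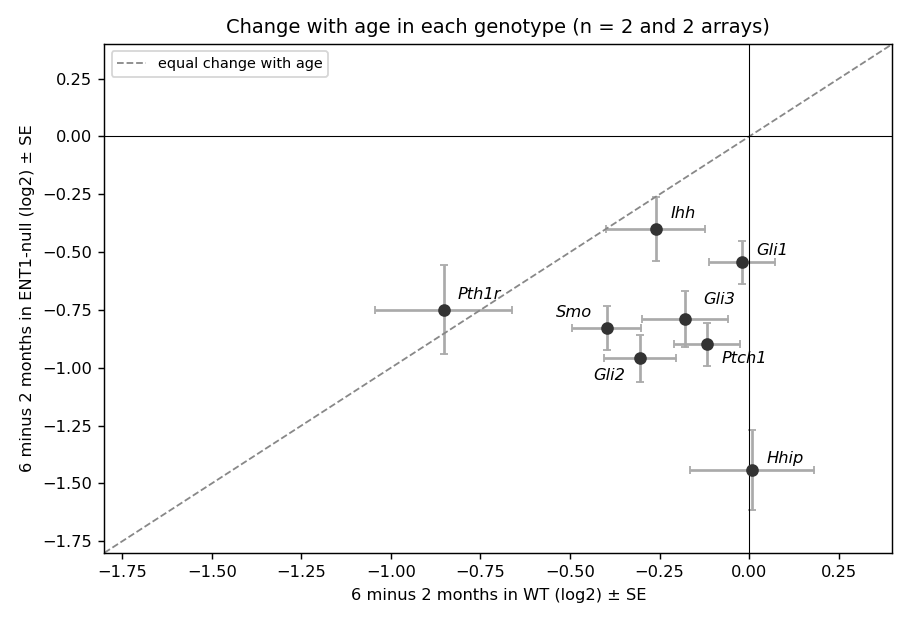
Difference between 6 and 2 months in log2 units for each gene in WT (horizontal axis) and in ENT1-null annulus (vertical axis), with the SE of the limma fit as bars and a dashed line where both are equal. In ENT1-null annulus the values run from −1.44 (Hhip) to −0.40 (Ihh), and in WT from −0.85 (Pth1r) to 0.0081 (Hhip). Values relative to the chondrocyte markers are not drawn. On that scale the median of all genes is 1.00, and all but Hhip (−0.44) lie at 0.046 to 0.60 in ENT1-null annulus.

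Averaged over both ages, with 4 arrays per genotype, 7 of the 8 genes were lower in ENT1-null annulus, against 24.5% of all genes called and 11.7% as lower. Smo (−0.59 ± 0.10, adjusted p = 0.00906) and Gli2 (−0.70 ± 0.14, 0.0121) had the lowest adjusted p-values, and Hhip (−0.96 ± 0.28, 0.0421) the largest difference. Gli1 (−0.49 ± 0.11, 0.0208), Gli3 (−0.56 ± 0.14, 0.0239), Ptch1 (−0.57 ± 0.15, 0.0317) and Pth1r (−0.50 ± 0.13, 0.0326) also passed, and Ihh (−0.23 ± 0.10, 0.118) did not. All WT arrays were above all ENT1-null arrays for Ptch1, Gli1 and Hhip only, 3 of 8, against 10.4% of all genes (23% without overlap in either direction). With any one 6 month array left out (either genotype, replicate 1 or 2), 2 of the 8 were called, and relative to the chondrocyte markers none was, on a scale where 75.8% of all genes were called and their median was 0.52, above all 8 values.

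In the wider pathway at 6 months, 6 of 11 tested genes of ligand release and reception fell and none rose, with a median of −0.45. Of all genes 38.8% were called at this age, 17.6% as lower, with a median of −0.026, and the list counts that follow are read against these. Boc, a coreceptor for Hedgehog ligands, fell by 1.35 ± 0.14 (adjusted p = 0.00057) and was at −0.40 at 2 months. Scube1, a secreted protein of the family that helps release the lipid-bearing ligand, fell by 1.10 ± 0.12 (0.000565; −0.65 at 2 months). Hhat, which attaches palmitate to the ligand, fell by 0.53 ± 0.08 (0.00197; −0.11 at 2 months). Boc, Scube1 and Hhat were named for the 3 largest limma statistics of their list at 6 months. The genes named from the lists below were taken likewise, unless stated otherwise, so that their p-values are no independent test. The other 3 that fell, Scube3, Cdon and Gas1, were named after their values were seen. Shh, the notochord ligand, was under the filter (mean 5.27).

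Of 17 intracellular regulators 3 were higher and 3 lower, with a median of 0.027, a share called near the 38.8% of all genes. Arrb2, a beta-arrestin, rose by 1.83 ± 0.21 (adjusted p = 0.000673) and Arrb1 by 0.70 ± 0.10 (0.00133), from 0.91 and 0.24 at 2 months. Evc, a ciliary partner of Smo, fell by 0.66 ± 0.08 (0.000883; −0.12 at 2 months). Of 14 tested genes of the primary cilium, where Smo acts, 7 fell and 1 rose, with a median of −0.24. The intraflagellar transport genes Ift88 (−0.82 ± 0.10, adjusted p = 0.00094), Wdr35 (−0.73 ± 0.11, 0.00222) and Ift172 (−0.63 ± 0.10, 0.00222) were at −0.31, −0.24 and −0.35 at 2 months.

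Transcripts known to respond to Hedgehog signalling in sclerotome and other mesenchyme fell in 9 of 11 tested cases, with a median of −0.77. The 8 chondrocyte markers had a median of −0.83 at this age. The genes of the wider lists were not read relative to those markers, so that their falls are on the deposited scale only. Pax1 (−1.04 ± 0.11, adjusted p = 0.000574), Pax9 (−0.96 ± 0.10, 0.000542) and Nkx3-2 (−0.89 ± 0.12, 0.00111), the sclerotome transcription factors, were at −0.29, −0.31 and −0.42 at 2 months. On the PTHrP receptor's side 6 of 17 fell and none rose, with a median of −0.17, against 38.8% of all genes called and 17.6% called as lower. The 6 included Mef2c (−0.56 ± 0.11, adjusted p = 0.00509), a driver of hypertrophy that PTHrP signalling restrains, and Zfp521 (−0.58 ± 0.11, 0.00566), a nuclear factor downstream of PTHrP in chondrocytes. Ramp2, an accessory protein of receptors of the same class, fell by 0.80 ± 0.16 (0.00718), which ended without 6 month WT replicate 2 (adjusted p = 0.051).

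The lists of the growth plate zones that this signalling separates were read in the same way, against the same shares of all genes (38.8% called, 17.6% lower). Of 6 resting zone genes 5 fell (median −0.86), among them the Wnt antagonists Sfrp5 (−1.51 ± 0.11, adjusted p = 0.000383) and Wif1 (−1.03 ± 0.12, 0.00066) and the cartilage matrix protein Ucma (−0.92 ± 0.09, 0.000453). Of 10 proliferating zone genes 8 fell (median −0.82), among them the cartilage transcription factors Sox9 (−1.11 ± 0.09, 0.000383) and Sox5 (−0.87 ± 0.08, 0.000439) and the collagen gene Col9a1 (−1.17 ± 0.16, 0.00136). Of 9 tested hypertrophic zone genes 5 fell, 1 rose and 3 did not pass (median −0.54). Col10a1, the collagen that defines hypertrophic chondrocytes, named after its value was seen, was among the 3, at −0.34 (adjusted p = 0.124). Panx3, a channel of late chondrocytes, fell by 1.45 ± 0.14 (adjusted p = 0.000487), Alpl, the phosphatase of mineralizing cells, by 0.79 ± 0.10 (0.00109) and Vegfa, an angiogenic factor, by 0.74 ± 0.14 (0.00579). Mmp13, a collagenase of hypertrophic chondrocytes and osteoblasts, named after its value was seen, rose by 1.15 ± 0.26 (0.0103). Several of these genes are also chondrocyte markers, so that the counts do not stand apart from the marker fall given above. At 2 months 1 gene of all these lists was called, Alpl (−0.79 ± 0.10, adjusted p = 0.0427). Alpl did not pass in limma without the filter on low values (adjusted p = 0.0534) or with the replicate block (0.0772). Nor did it pass when only the 2 month groups were fitted (0.0598). That call ended when either 6 month ENT1-null array was left out (both 0.0614), as it did for the first 2 month WT array (0.254) and for 2 month ENT1-null replicates 1 (0.127) and 2 (0.204).

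**Figure D5:**
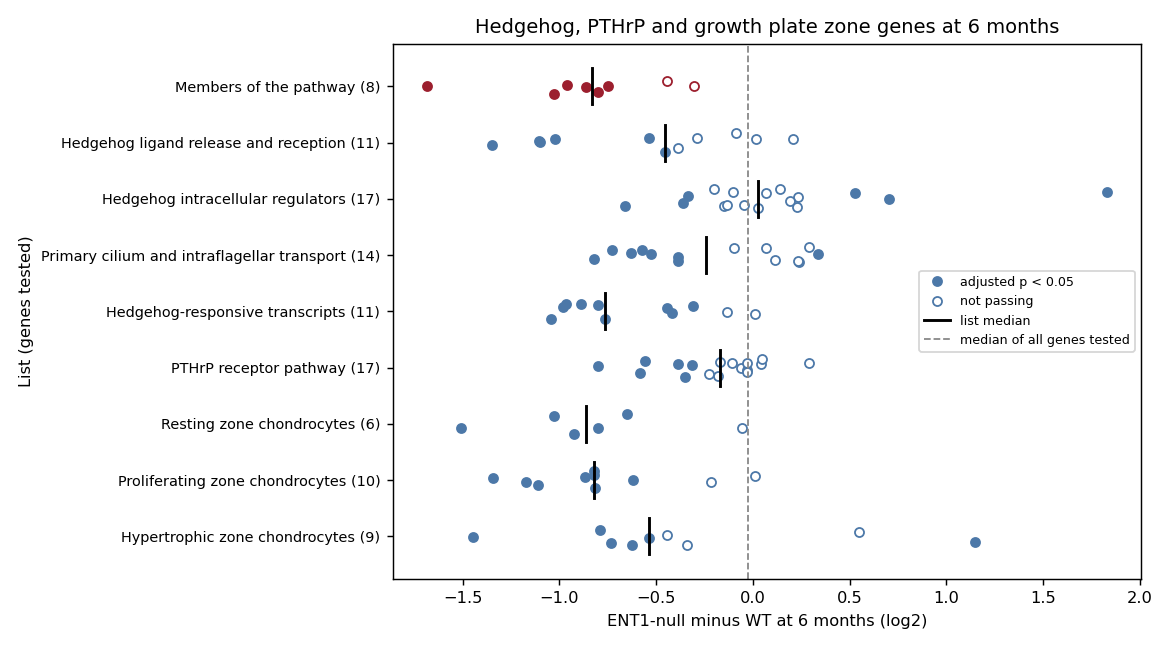
Difference between ENT1-null and WT at 6 months in log2 units for every tested gene (points) of each pathway and growth plate zone list, with the 8 measured genes in the top row, filled points for an adjusted p below 0.05, a bar at each list's median and a dashed line at the median of all genes. Most points lie below 0 in the ligand, Hedgehog-responsive, resting and proliferating rows, and the intracellular regulators lie on both sides of 0.

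Genes most like these in pattern over the 8 arrays were taken by Pearson r, as a description, since the arrays fall into separate groups. For Gli1 they were Trps1, a cartilage and hair transcription factor (r = 0.995), and Fxyd1, a regulator of the sodium pump (0.995). For Pth1r they were Furin, a protease of the secretory pathway (0.987), and Atp8b2, a lipid flippase (0.985). For Ihh they were Xxylt1, a xylosyltransferase (0.975), and Kctd17 (0.966). An r above 0.9 was held by 8.57% of all genes with Gli1, 2.13% with Pth1r and 1.07% with Ihh, so that many genes share the pattern of Gli1 and few that of Ihh.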

How the data were processed

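RNA from 8 pools of thoracic annulus fibrosus was labelled from 200 ng and measured on Affymetrix arrays, per the labels' protocols. The authors deposited log2 values, 1 per probe set and array, made by RMA per the submitters' processing notes, which corrects background, normalizes quantiles between arrays and summarizes probes. Not given in the sources used here are RMA's version, the array's design and the genome build. RMA sets array distributions alike, so that a change in total RNA cannot be seen. No counts underlie the values, and the number of arrays limits the precision.

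A single gene symbol was listed for 23521 of 41345 probe sets, several for 1814 and none for 16010. Genes were taken each from its single-symbol probe set with the highest mean (22180 genes), and genes below the 30th percentile of means (6.21) were left out (15526 tested). A fit of 4 group means in limma 3.58.1 (R 4.3.3) with eBayes gave the genotype effect at each age, their difference and the age effect in each genotype, and an additive fit on genotype and age gave the effect across ages. Adjusted p-values are Benjamini-Hochberg over all genes tested. The fits were tested on simulated data.

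The genes and lists were chosen with earlier results of these data known. Named genes were the 8 measured ones, Slc29a1, the 3 genes with the largest limma statistic at 6 months in each of 8 lists, and the 2 most like in pattern to Ihh, Gli1 and Pth1r. Others were named after their values were seen. Alternatives were no filter, a 50th percentile filter, all probe sets, quantile normalization again, arrays centred on their medians or on 8 chondrocyte markers, each array left out, eBayes with trend and robust, the replicate number as a block, only the groups compared, a 1.5-fold difference with unadjusted p below 0.05, and adjusted p below 0.1. The choice of another probe set could not be varied, since each gene had 1.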

Additional observations from a re-analysis of the deposited data

Results flagged for a closer look

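In limma's interaction test (6 month minus 2 month difference between ENT1-null and WT, adjusted p below 0.05), 4.45% of all genes were called, 1.89% as lower. Among the 8 genes of the core pathway 3 were called, Hhip (−1.45), Ptch1 (−0.78) and Gli2 (−0.65). In the wider lists 9 named genes also passed, but they had been named for their large statistic at 6 months, which is part of the interaction, so that their values are a description and no independent test. They were the coreceptor Boc (−0.94), the ciliary gene Evc (−0.54), the sclerotome factors Pax1 (−0.76) and Pax9 (−0.65), the resting zone genes Sfrp5 (−0.88) and Ucma (−0.70), the cartilage factors Sox9 (−0.75) and Sox5 (−0.72), and Panx3 (−1.32). Each of these calls ended without the filter on low values and when any one array was left out, except that Sox9 held without 6 month WT replicate 1 (adjusted p = 0.0422).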

How the results depend on the processing

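With 2 arrays per group, precision was limited by the number of arrays. Of the 8 genes, the count called as lower at 6 months was 6, and 6 whichever array was left out. Leaving out arrays gave 0 at 2 months, in the interaction and for age in WT, 6 to 8 for age in ENT1-null and 2 to 7 across ages. At an adjusted p below 0.1 the counts were 1 at 2 months and 6 in the interaction. Without the filter the interaction count was 0. With unadjusted p and 1.5-fold they were 1 for age in WT and 3 across ages. Relative to the chondrocyte markers 3 were called at 6 months (1 lower), 4 for age in WT (1 lower), 3 for age in ENT1-null (1 lower) and 0 across ages, against 90.3%, 72.5%, 95.9% and 75.8% of all genes, nearly all as higher. Over all genes, the 106 calls at 2 months became 29 without the filter, 35 with all probe sets, 239 with quantile normalization again, 240 with median centring, 259 with trend and robust, 1 with the replicate block and 0 to 358 with an array left out. The 691 interaction calls became 11, 1102 and 353 without the filter, with trend and robust and with the block, and 0 to 319 with an array left out. Leaving out arrays took the 6022 calls at 6 months to 3670 (6 month WT replicate 2). In the fit with the replicate number as a block, 6 were called at 6 months, 2 in the interaction and 5 across ages, where Hhip (adjusted p = 0.0634) and Ptch1 (0.054) were lost. Correlations of same-numbered arrays' deviations ran from −0.39 (2 month WT with 6 month WT) to 0.41 (2 month WT with 2 month ENT1-null). Such values do not settle whether replicate numbers pair the arrays, and the labels give no pairing.

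Signs turned relative to the chondrocyte markers at 2 months for Ihh (0.13), Ptch1 (0.11), Gli1 (0.067), Gli3 (0.036) and Hhip (0.056), and at 6 months for Ihh (0.52), Smo (0.022), Gli1 (0.076) and Pth1r (0.38). In the interaction they turned for Ihh (0.39), Smo (0.10) and Gli1 (0.0094). For age in WT they turned for Ihh (0.21), Ptch1 (0.35), Smo (0.073), Gli1 (0.45), Gli2 (0.17) and Gli3 (0.29). For age in ENT1-null they turned for Ihh (0.60), Ptch1 (0.11), Smo (0.18), Gli1 (0.46), Gli2 (0.046), Gli3 (0.22) and Pth1r (0.26), and across ages for Ihh (0.32), Gli1 (0.072) and Pth1r (0.062). That scaling shifts all genes alike, by a mean that itself fell. Gli1 for age in WT was 0.016 with median centring and 0.039 with quantile normalization again, and the Pth1r interaction −0.055 with the latter; the cause was not tested. With arrays left out, values spanned 0 for Ihh at 2 months (−0.35 to 0.020), Ihh and Pth1r in the interaction (−0.32 to 0.045 and −0.15 to 0.36), Gli1 and Hhip for age in WT (−0.052 to 0.012 and −0.035 to 0.052), and at 2 months Col9a1 (−0.36 to 0.081), Panx3 (−0.29 to 0.044) and Vegfa (−0.018 to 0.067).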
